A study of Homo sapiens with 16 samples.

Results

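The response of PNPLA3 GG clones to palmitic acid was measured by RNA sequencing in 6 libraries of a series of 16. Their labels put them in this group: clones 1, 2 and 6 of genotype GG, each sampled once as a control and once under palmitic acid, and paired by clone number. All are lines of the established human hepatoma line HepG2, from a prime editing series with 3 genotypes at the PNPLA3 I148M site. GG means that both alleles carry the G base that encodes the I148M form of the protein. The treated cells received 250 µM palmitic acid. The treatment protocol gives 48 h, while the labels of the treated libraries of clones 1, 2 and 6 give 48, 49 and 50 h; the control cells are labelled only as control. The other 10 libraries come from 3 GC clones (1 allele of each kind) and 2 CC clones (no G allele), also with and without palmitic acid, and enter here through a shared estimate of the spread and as a comparison.

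Palmitic acid is the most common saturated fatty acid of the circulation. Liver cells can burn it in mitochondria, store it as triglyceride in lipid droplets or build it into phospholipids and ceramides, and an excess of saturated over unsaturated fat is known to stress the endoplasmic reticulum. Harm to cells from excess lipid is called lipotoxicity. PNPLA3 sits on lipid droplets and takes part in the turnover of their triglyceride; the I148M form is known to accumulate there and is a common inherited risk factor for fatty liver disease. Each numbered line is taken as 1 clone. The sources used here do not give how the lines were derived or the genotype before editing, and clones of 1 genotype can differ in more than the edited base.

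Expression is given in per-million units after the authors' scaling between libraries, and changes are on the log2 scale of the level plus 0.5, as the mean of the 3 paired differences, so that 1 stands for a doubling. The 6 libraries held 11450202 to 14033823 reads. The markers of hepatocytes were all present: the 10 listed genes summed to 15911 to 25396 units in control and 14724 to 23059 units under palmitic acid, and the oncofetal genes typical of HepG2 (AFP, GPC3 and IGF2) to 8068 to 19686 and 7871 to 16975 units. The hepatocyte sum is carried largely by APOB, at 9553 to 15005 units in control and 9253 to 15177 under palmitic acid. ALB was at 174 to 807 and 128 to 820 units, and TTR at 3.46 to 145 and 3.21 to 99.8. FGB, also on that list, fell and is described below. The 2 libraries of a clone deviated from their group means together. The correlations across genes were 0.798, 0.861 and 0.836 for clones 1, 2 and 6.

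PNPLA3 itself (GENCODE identifier ENSG00000100344.10, GRCh38 chromosome 22, 43923739 to 43964488, plus strand) went from 6.64 to 8.39 units in clone 1, from 4.67 to 3.94 in clone 2 and from 3.47 to 3.56 in clone 6. The 3 clones did not move in 1 direction and the groups overlapped, with a log2 change of 0.042 ± 0.17 (SE, n = 3 clones, limma adjusted p = 0.937), which turned to -0.095 without clone 1. Its level rests on 39 to 107 reads per library and does not check the genotype.

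Palmitic acid changed 111 of 12997 tested genes in the GG clones by limma with the clone as a block (adjusted p under 0.05, hereafter called), 76 upward and 35 downward. That is 0.854% of the genes, 0.585% for rises and 0.269% for falls. At an unadjusted limma p under 0.05, 1102 of the 12997 genes were higher and 940 lower. Unadjusted counts for the lists below are to be read against these numbers. All 111 went the same way in the 3 clones, and of all genes 39.5% did so; 20 rises and 12 falls were at least 2-fold. In 50 of the 111 the treated and control ranges did not overlap, a pattern seen in 5.42% of the tested genes. Of these 35 were higher and 15 lower, where 2.82% and 2.6% of the tested genes had that pattern. The calls rest on all 3 clones: limma called 0 genes without clone 1 (1157 at an unadjusted p under 0.05), 20 without clone 2 and 6 without clone 6. Without the clone block it called 0 (215 at an unadjusted p under 0.05). The spread is shared with the other genotypes. Without the CC clones, in a fit chosen after seeing the data, 471 of the 12997 genes were called, all 111 among them.

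**Figure D1:**
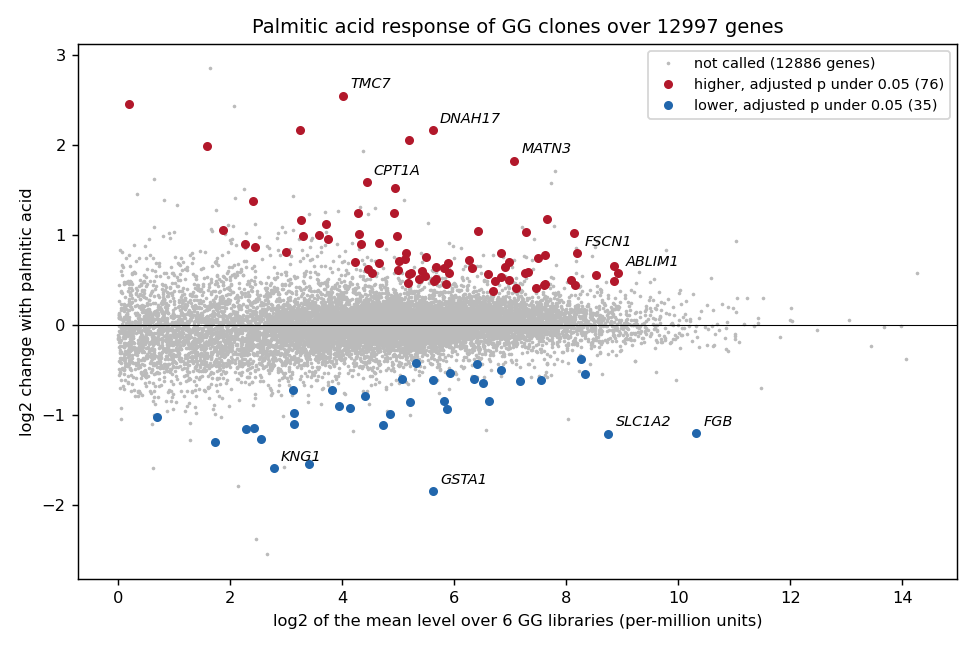
Each point is 1 of 12997 tested genes; the horizontal axis is the log2 of its mean level over the 6 GG libraries in per-million units and the vertical axis its log2 change with palmitic acid (mean of 3 clones). Red points are the 76 called rises and blue points the 35 called falls; among the abundant genes FGB and SLC1A2 fell by about the same amount, at -1.20 and -1.21.

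Genes of the extracellular matrix and of cell adhesion held 4 of the 15 largest called rises at 5 units or more in the higher group. Of 31 tested genes of this list, 6 rose, 2 fell and 23 did not pass the test, which is 25.8% called against 0.854% of all genes; their median log2 change was 0.33 against 0.0013 over all genes. Several of them (MATN3, CEMIP, BGN, ADGRG1, NRP2, MMP11) were put on the list with earlier results of these libraries in view. The first 4 of these are the 4 among the 15 largest rises. The count, the share and the median are therefore a description. MATN3, a cartilage matrix protein (chromosome 2, 19992111 to 20012694, minus strand), had the smallest p of all genes. It went from 11.8 to 55.9 units in clone 1, from 199 to 477 in clone 2 and from 11.4 to 48.3 in clone 6. Clone 2 stood far above the other two before and after treatment, and all 3 rose, by a log2 change of 1.83 ± 0.17 (SE, n = 3 clones, adjusted p = 0.00350).

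CEMIP, which binds and breaks down hyaluronan, went from 3.67 to 25.5 units in clone 1, from 23.2 to 84.4 in clone 2 and from 19.4 to 64.3 in clone 6. Its change was 2.06 ± 0.31 (SE, n = 3 clones, adjusted p = 0.0201). The treated libraries all lay above the controls, although treated clone 1 was only just above control clone 2. The adhesion receptor ADGRG1 (chromosome 16, 57610652 to 57665580, plus strand) went from 2.08 to 6.59 units in clone 1, from 3.01 to 13.6 in clone 2 and from 3.04 to 28.6 in clone 6; controls were close together and treated clones spread out, with a change of 2.17 ± 0.33 (SE, n = 3 clones, adjusted p = 0.0201). BGN, the small proteoglycan biglycan, was low, with 6 to 86 reads per library, and went from 1.25 to 6.74 units in clone 1, from 0.475 to 3.49 in clone 2 and from 1.01 to 5.02 in clone 6. Its changes in the 3 clones were nearly equal, at 1.98 ± 0.32 (SE, n = 3 clones, adjusted p = 0.0239).

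TGFB1, the cytokine that drives matrix production, went from 50.2 to 113 units in clone 1, from 48.0 to 75.5 in clone 2 and from 65.3 to 166 in clone 6. The groups did not overlap, and its change was 1.05 ± 0.19 (SE, n = 3 clones, adjusted p = 0.0325). SPARC, a matrix protein that binds collagen, went from 222 to 414 units in clone 1, from 23.8 to 60.1 in clone 2 and from 74.97 to 139.7 in clone 6. Its clones differed from each other by more than the treatment changed them, and each rose, at 1.04 ± 0.15 (SE, n = 3 clones, adjusted p = 0.0177). The 2 members that fell were MMP11 and TIMP3. MMP11, a metalloproteinase, went from 30.3 to 12.4 units in clone 1, from 53.2 to 16.3 in clone 2 and from 27.3 to 20.3 in clone 6. Its change was -1.12 ± 0.20 (SE, n = 3 clones, adjusted p = 0.0323). The step was smallest in clone 6, and all treated clones lay below all controls. TIMP3, an inhibitor of metalloproteinases, went from 82.0 to 47.0 units in clone 1, from 371 to 260.0 in clone 2 and from 217 to 151 in clone 6. Its change was -0.61 ± 0.081 (SE, n = 3 clones, adjusted p = 0.0141). It went down in every clone, while its groups overlapped.

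Markers of stellate cells and fibroblasts, which make matrix in liver, were followed beside this list. All samples are lines of HepG2, and the markers are read here as genes. In bulk RNA, fewer expressing cells and less RNA per cell cannot be told apart. Of 9 such genes 7 were in the table, and they summed to 67.4 to 126.9 units in control and 70.9 to 116.7 units under palmitic acid. COL1A1 was at 0.208 to 0.434 and 0.365 to 0.392 units, PDGFRA at 0.208 to 0.554 and 0 to 0.183 units and DES at 0 to 0.208 and 0.0913 to 0.470 units. COL3A1 was at 0.951 to 1.52 and 1.10 to 2.51 units. PDGFRB, a receptor of stellate cells and pericytes, went from 1.66 to 3.53 units in clone 1, from 22.3 to 13.9 in clone 2 and from 1.23 to 7.95 in clone 6, a log2 change of 0.84 ± 0.48 (adjusted p = 0.431). It was highest in clone 2, lower under palmitic acid there and higher in the other two clones. TAGLN and ACTA2, which were well above 0 in all 6 libraries, stood at 1.31 ± 0.49 (adjusted p = 0.236) and -0.51 ± 0.19 (adjusted p = 0.233) on the log2 scale and did not pass the test.

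**Figure D2:**
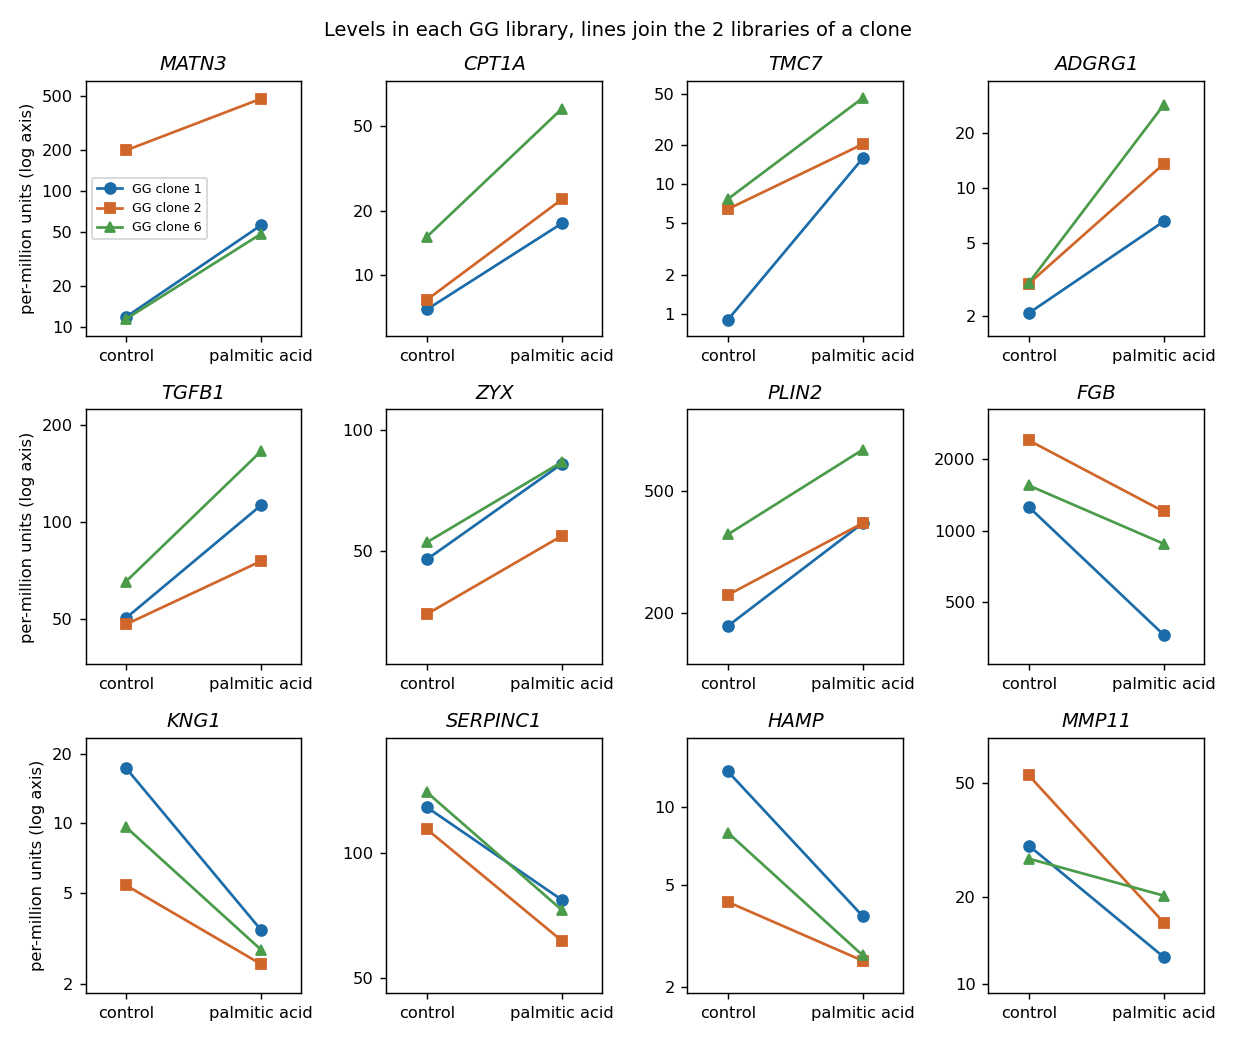
Levels of 12 genes in each of the 6 GG libraries, in per-million units on a log axis, with control at the left and palmitic acid at the right of each panel and a line joining the 2 libraries of a clone (circles clone 1, squares clone 2, triangles clone 6). In every panel the 3 lines run the same way, while the clones start far apart for MATN3, from 11.4 to 199 units; PLIN2 is the 1 gene shown that was not called.

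Among genes of the actin cytoskeleton and targets of the YAP co-activator, 1 of 31 tested was called, ZYX, and 17 (54.8%) were higher in every GG clone, while the share among all genes was 20.2%. Zyxin, a protein of focal adhesions, went from 47.7 to 82.3 units in clone 1, from 34.9 to 54.5 in clone 2 and from 52.5 to 83.1 in clone 6. The groups did not overlap and the steps were alike, at 0.69 ± 0.085 (SE, n = 3 clones, adjusted p = 0.0131). The median log2 change of the list was 0.34, and 16 members passed an unadjusted p of 0.05 upward and 2 downward. The actin cross-linker FLNA stood at 0.84 ± 0.22 (adjusted p = 0.101) and the tropomyosin TPM4 at 0.52 ± 0.12 (adjusted p = 0.0788), both without overlap of the groups. Without the CC clones 8 members of the list were called, in a fit chosen after seeing the data that called 471 of all 12997 genes.

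Actin genes outside this list, named after their values were seen, were called as well. The bundling protein FSCN1 went from 317 to 539 units in clone 1, from 212 to 412 in clone 2 and from 107 to 173 in clone 6. Its change was 0.80 ± 0.09 (SE, n = 3 clones, adjusted p = 0.0129). Clone 6 was lowest in both groups. ABLIM1, which binds actin through LIM domains, went from 425 to 604 units in clone 1, from 261 to 399 in clone 2 and from 488 to 742 in clone 6. Its change was 0.57 ± 0.075 (SE, n = 3 clones, adjusted p = 0.0137). Each clone rose by a similar factor from its own level, so that control and treated ranges overlapped for both. CAP2, which sequesters actin monomers, went from 23.6 to 51.0 units in clone 1, from 25.4 to 37.7 in clone 2 and from 27.9 to 46.8 in clone 6. Its change was 0.80 ± 0.12 (SE, n = 3 clones, adjusted p = 0.0201), and the actin-binding DBN1 stood at 0.49 ± 0.078 (adjusted p = 0.0234).

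In fat oxidation the carnitine palmitoyltransferase CPT1A, which commits long-chain fatty acids to entry into mitochondria, rose most. It went from 6.85 to 17.4 units in clone 1, from 7.60 to 22.6 in clone 2 and from 15.1 to 60.3 in clone 6. All treated clones lay above all controls, and clone 6 was highest in both groups, with a change of 1.59 ± 0.28 (SE, n = 3 clones, adjusted p = 0.0313). ACADVL, the first enzyme of very-long-chain oxidation, went from 96.8 to 130.2 units in clone 1, from 156 to 195 in clone 2 and from 104 to 147 in clone 6, a small and even step of 0.41 ± 0.081 (SE, n = 3 clones, adjusted p = 0.0430). These were 2 of 27 tested genes of fatty acid oxidation and targets of PPAR-alpha, the fatty acid receptor, with 0 falls; 10 were higher and 5 lower in all 3 clones, and the median was 0.036. MPC1, a subunit of the pyruvate carrier of mitochondria and named after its value was seen, went from 20.2 to 11.3 units in clone 1, from 43.4 to 23.2 in clone 2 and from 18.2 to 11.2 in clone 6. Its change was -0.79 ± 0.11 (SE, n = 3 clones, adjusted p = 0.0148).

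Of 20 tested lipid droplet and triglyceride genes, 0 were called by limma, with 2 higher and 3 lower at an unadjusted p under 0.05 and a median of -0.011. PLIN2, the main coat protein of lipid droplets in liver cells, went from 182 to 393 units in clone 1, from 229 to 393 in clone 2 and from 361 to 681 in clone 6. The groups did not overlap, and the log2 change of 0.93 ± 0.24 missed the threshold (adjusted p = 0.0968). DGAT1, which makes triglyceride, was at -0.58 ± 0.14 (adjusted p = 0.0788) and the lipase CES1 at -0.52 ± 0.12 (adjusted p = 0.0755). Each was lower in all 3 clones, and CES1 was scarce in clone 2 in both conditions, at 1.82 and 1.41 units. Without the CC clones, where 471 of all 12997 genes were called, 4 members of this list were. With all libraries edgeR called 1 (108 of all genes) and DESeq2 3 (251 of all genes).

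The other lipid lists held 0 calls by limma and edgeR, and DESeq2 called 1, in the bile acid list. Among 24 genes of fatty acid uptake and synthesis 4 were higher and 5 lower at an unadjusted p under 0.05, with the elongase ELOVL6 at -0.34 ± 0.12 (adjusted p = 0.223) and the fatty acid importer SLC27A2 at -0.43 ± 0.13 (adjusted p = 0.153). For 20 ceramide and sphingolipid genes these counts were 3 and 1, for 23 cholesterol genes 1 and 2, for 19 apolipoprotein genes 1 and 2 and for 10 bile acid genes 3 and 2. Of all 12997 tested genes, 1102 were higher and 940 lower at that level. The medians of the 4 lists were 0.069, 0.041, -0.15 and -0.078. The bile acid list spread widest: NR0B2, the repressor that curbs bile acid synthesis, was at 0.72 ± 0.18 (adjusted p = 0.0895) and SLC51B, a bile acid exporter, at -0.96 ± 0.24 (adjusted p = 0.0978), each without overlap of its groups.

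Falls among genes that hepatocytes secrete or use for detoxification are described next, by list. Sequence upstream of FGB, KNG1 and ADH4, which fell, and of MATN3, which rose, is shown because these windows hold letters that were searched for; other falls described below, such as HAMP and HGFAC, had no match to the C/EBP letters. Each line is 110 bases in lower case, read 5′ to 3′ on the gene's strand (RefSeq, GRCh38.p14). Capitals mark letters searched for in the 250 bases before each start, on both strands: TTGCNNAA for the core motif of C/EBP factors, which act in hepatocytes, and ACATTCC for TEAD, the partner of YAP.
FGB (chr4:154562828-154562937, plus strand): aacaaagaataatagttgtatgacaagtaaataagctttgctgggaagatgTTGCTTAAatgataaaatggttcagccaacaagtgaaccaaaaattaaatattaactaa
KNG1 (chr3:186717109-186717218, plus strand): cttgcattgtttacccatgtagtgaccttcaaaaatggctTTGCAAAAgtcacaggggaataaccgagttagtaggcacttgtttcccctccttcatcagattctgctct
ADH4 (chr4:99144298-99144407, minus strand): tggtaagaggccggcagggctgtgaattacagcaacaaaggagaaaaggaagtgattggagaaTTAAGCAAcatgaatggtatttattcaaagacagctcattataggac
MATN3 (chr2:20012761-20012870, minus strand): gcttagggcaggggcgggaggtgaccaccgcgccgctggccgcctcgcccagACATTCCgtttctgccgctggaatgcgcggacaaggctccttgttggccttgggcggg

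RefSeq windows were matched for 93 of the 111 called genes, 6 of them by another symbol, which gave 101 windows of genes that rose and 43 of genes that fell. The C/EBP core was in 20.9% of the windows of fallen genes, from 8 genes, 5.94% of those of risen genes and 9.05% of all 35116 windows. TGANTCA, the AP-1 motif, was in 2.33% of fallen, 9.90% of risen and 6.57% of all windows, and the TEAD letters in 4.65%, 3.96% and 2.96%. A match gives the letters in the window and no binding, and none of these shares was tested.

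FGB, the fibrinogen beta chain and the most abundant gene that fell, went from 1259 to 363 units in clone 1, from 2405 to 1205 in clone 2 and from 1551 to 879.7 in clone 6. Every treated clone lay below every control, with a change of -1.20 ± 0.22 (SE, n = 3 clones, adjusted p = 0.0323). KNG1, the kininogen from which bradykinin is cut, went from 17.4 to 3.45 units in clone 1, from 5.39 to 2.45 in clone 2 and from 9.62 to 2.83 in clone 6, again without overlap, at -1.59 ± 0.27 (SE, n = 3 clones, adjusted p = 0.0282). SERPINC1, antithrombin, went from 129 to 77.1 units in clone 1, from 114 to 61.5 in clone 2 and from 139.6 to 72.9 in clone 6. Its 3 clones were close together before and after, at -0.85 ± 0.14 (SE, n = 3 clones, adjusted p = 0.0239).

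These were the 3 falls among 28 tested coagulation and complement genes, of which 1 rose, SERPINA5, the protein C inhibitor, from 237 to 293 units in clone 1, from 282 to 373 in clone 2 and from 203 to 315 in clone 6, a change of 0.45 ± 0.079 (SE, n = 3 clones, adjusted p = 0.0323). In all, 15 members (53.6%) were lower in every GG clone, while the share among all genes was 19.3%, and the median was -0.16. The list was written with earlier results of these data known, so that its share called, 14.3%, is a description. Without the CC clones 8 members were called, in the fit that called 471 of all 12997 genes. Among 20 other plasma proteins the retinol carrier RBP4 fell, from 298 to 191 units in clone 1, from 335 to 244 in clone 2 and from 517 to 352 in clone 6, a change of -0.55 ± 0.10 (SE, n = 3 clones, adjusted p = 0.0323). Haptoglobin, HP, was lower in all treated clones than in all controls but missed the threshold, at -1.05 ± 0.29 (adjusted p = 0.124).

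The glutathione transferases GSTA1 and GSTA2, which conjugate electrophiles, are near-identical neighbours on chromosome 6, so reads may be split between them and each value is uncertain. GSTA1 went from 178 to 62.4 units in clone 1, from 3.80 to 1.41 in clone 2 and from 45.7 to 5.75 in clone 6. Its level differed between control clones far more than the treatment changed it, and its change was -1.85 ± 0.37 (SE, n = 3 clones, adjusted p = 0.0453). GSTA2 went from 29.1 to 10.8 units in clone 1, from 6.97 to 2.38 in clone 2 and from 11.6 to 2.74 in clone 6. Its change was -1.55 ± 0.30 (SE, n = 3 clones, adjusted p = 0.0389). Clone 1 was highest for both genes in control and under palmitic acid. The alcohol dehydrogenase ADH4 went from 18.7 to 7.29 units in clone 1, from 5.70 to 3.71 in clone 2 and from 46.3 to 24.4 in clone 6. Its change was -0.92 ± 0.15 (SE, n = 3 clones, adjusted p = 0.0268). With these 3 falls and 0 rises among 27 tested genes of xenobiotic metabolism, 11.1% were called, and the median was -0.094.

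HAMP, the iron hormone hepcidin, was the 1 call among 15 iron genes. It went from 13.8 to 3.76 units in clone 1, from 4.28 to 2.53 in clone 2 and from 7.96 to 2.65 in clone 6, on 29 to 199 reads per library, and fell without overlap by a change of -1.28 ± 0.25 (SE, n = 3 clones, adjusted p = 0.0417). Of 18 hepatocyte transcription factors 1 fell, NR2F2, from 81.4 to 46.4 units in clone 1, from 53.9 to 39.1 in clone 2 and from 44.9 to 29.8 in clone 6, a change of -0.61 ± 0.12 (SE, n = 3 clones, adjusted p = 0.0394). The master regulator HNF4A was at 354 to 476 units in control and 358 to 380.3 under palmitic acid. Of 22 genes of amino acid metabolism 0 were called by limma (1 higher and 3 lower at an unadjusted p under 0.05; edgeR 0, DESeq2 3), with BHMT, which remethylates homocysteine, at -1.01 ± 0.28 (adjusted p = 0.119) and AGXT of glyoxylate disposal at -0.88 ± 0.21 (adjusted p = 0.0845).

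Among called carriers, a group with no list of its own that was put together after the values were seen, 3 fell. SLC1A2, a glutamate carrier, went from 679 to 205 units in clone 1, from 358 to 174 in clone 2 and from 755 to 413 in clone 6. Its change was -1.21 ± 0.15 (SE, n = 3 clones, adjusted p = 0.0131). Clone 1 fell most, and the groups overlapped. SLC6A12, which imports betaine, went from 8.44 to 4.47 units in clone 1, from 6.26 to 2.08 in clone 2 and from 5.64 to 2.10 in clone 6. Its change was -1.16 ± 0.23 (SE, n = 3 clones, adjusted p = 0.0453). Every treated clone lay below every control. SLC29A4, a monoamine carrier, went from 109.7 to 50.7 units in clone 1, from 54.7 to 27.4 in clone 2 and from 68.0 to 41.3 in clone 6. Its change was -0.93 ± 0.18 (SE, n = 3 clones, adjusted p = 0.0380). Its groups did not overlap either. The carriers SLC39A10 (0.58 ± 0.10), SLC43A2 (0.64 ± 0.12), SLC2A6 (0.82 ± 0.15) and ABCC1 (0.70 ± 0.12) rose. Of the 15 largest called falls at 5 units or more in the higher group and with a conventional symbol, those not described with another group of genes were HGFAC, the activator of hepatocyte growth factor (-0.99 ± 0.18), the nuclear envelope protein SYNE3 (-1.11 ± 0.19), the phosphodiesterase GDPD5 (-0.997 ± 0.20) and COQ10A, which binds coenzyme Q (-0.90 ± 0.15). COQ10A went from 22.3 to 10.4 units in clone 1, from 22.7 to 9.73 in clone 2 and from 15.5 to 11.1 in clone 6, so that all treated libraries met near one level.

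**Figure D3:**
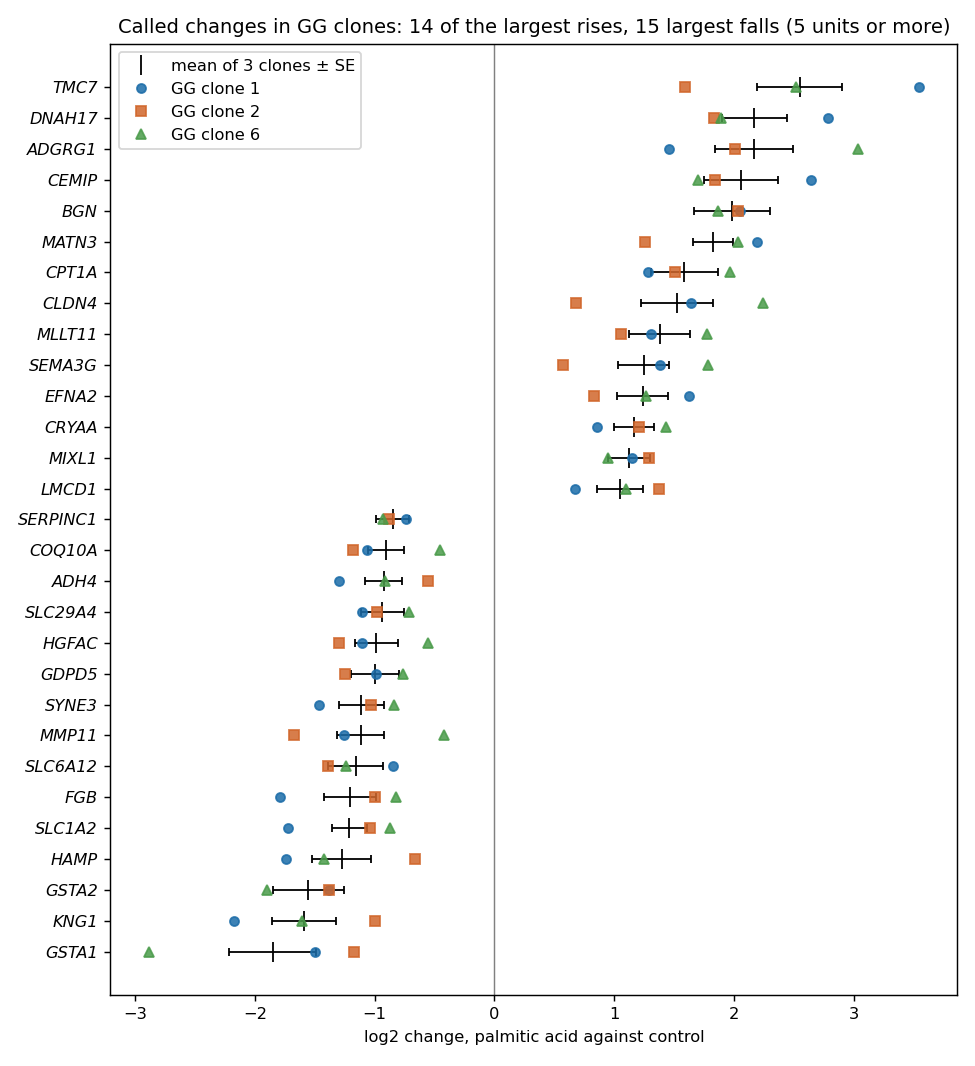
Log2 change with palmitic acid in each GG clone (circles clone 1, squares clone 2, triangles clone 6) for 14 of the 15 largest called rises and for the 15 largest called falls among genes with a conventional symbol and 5 units or more in the higher group, with the mean of the 3 clones as a tick and its SE as a bar. Every point lies on the same side of 0 as its mean. Clone 1 reaches 3.55 for TMC7 and clone 6 -2.88 for GSTA1. The SE uses the spread shared by the 3 genotypes.

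Among called genes the largest fitted rise was that of TMC7, a member of the transmembrane channel-like family (chromosome 16, 18983934 to 19063942, plus strand). It went from 0.899 to 15.8 units in clone 1, from 6.42 to 20.4 in clone 2 and from 7.67 to 46.2 in clone 6. The groups did not overlap, and the step was largest in clone 1, where control held 13 reads, with a mean change of 2.55 ± 0.35 (SE, n = 3 clones, adjusted p = 0.0168). DNAH17, a dynein of the ciliary axoneme, went from 13.6 to 96.4 units in clone 1, from 7.05 to 26.4 in clone 2 and from 31.8 to 119 in clone 6. Its change was 2.17 ± 0.27 (SE, n = 3 clones, adjusted p = 0.0131). Clone 2 was lowest in both groups, and the ranges overlapped. CLDN4, a tight junction protein, went from 10.8 to 34.8 units in clone 1, from 17.2 to 27.9 in clone 2 and from 15.8 to 77.0 in clone 6. Its change was 1.52 ± 0.30 (SE, n = 3 clones, adjusted p = 0.0443), with clone 2 moving least.

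Several signalling and surface genes followed. The secreted semaphorin SEMA3G went from 9.27 to 25.01 units in clone 1, from 8.40 to 12.7 in clone 2 and from 28.3 to 98.9 in clone 6. Its change was 1.25 ± 0.21 (SE, n = 3 clones, adjusted p = 0.0287). The ephrin ligand EFNA2 went from 7.26 to 23.4 units in clone 1, from 14.4 to 26.0 in clone 2 and from 13.0 to 32.0 in clone 6. Its change was 1.24 ± 0.21 (SE, n = 3 clones, adjusted p = 0.0303). Clone 1 moved most. CRYAA, a small heat shock protein of the lens, went from 6.57 to 12.3 units in clone 1, from 4.75 to 11.7 in clone 2 and from 5.79 to 16.5 in clone 6. Its change was 1.17 ± 0.17 (SE, n = 3 clones, adjusted p = 0.0177). Treated and control clones of EFNA2 and CRYAA did not overlap, while those of SEMA3G did, with clone 6 high from the start. MLLT11 (1.38 ± 0.25), the homeobox factor MIXL1 (1.13 ± 0.18) and the LIM domain protein LMCD1 (1.05 ± 0.19) were also among the 15 largest rises.

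Other called rises, named after their values were seen, included regulators of growth factor signalling. SKIL, a repressor of SMAD factors, went from 76.7 to 122 units in clone 1, from 50.3 to 90.6 in clone 2 and from 121 to 223 in clone 6. Its change was 0.80 ± 0.093 (SE, n = 3 clones, adjusted p = 0.0131). TGIF1, another SMAD co-repressor, stood at 0.55 ± 0.10 (adjusted p = 0.0380), the BMP receptor BMPR2 at 0.56 ± 0.086 (adjusted p = 0.0204), the EGF family ligand EREG at 0.95 ± 0.17 (adjusted p = 0.0323) and the feedback inhibitor SPRY2 at 0.58 ± 0.11 (adjusted p = 0.0355). Each went up in all 3 clones. Adhesion genes outside the list were the collagen-binding integrin ITGA1 (1.02 ± 0.21), the laminin chain LAMC3 (0.90 ± 0.11) and NPNT, an integrin ligand (0.78 ± 0.14). S100A11, a calcium-binding protein, went from 12.7 to 31.4 units in clone 1, from 10.4 to 16.6 in clone 2 and from 14.6 to 32.3 in clone 6. Its change was 1.02 ± 0.16 (SE, n = 3 clones, adjusted p = 0.0239).

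Falls named in the same way were CD22 (-1.31 ± 0.23), LINC00341 (-1.14 ± 0.18), DLGAP3 (-1.02 ± 0.20), the calcium channel of the endoplasmic reticulum ITPR1 (-0.53 ± 0.10), the kinase DAPK1 (-0.50 ± 0.10), the transcriptional co-regulator CITED2 (-0.61 ± 0.11) and the homeobox factor IRX3 (-0.73 ± 0.14). CD22, known as a receptor of B cells, was at 3.62 to 5.94 units in control and 1.41 to 2.19 units under palmitic acid. The read-through transcript ABHD14A-ACY1 had 0 reads in all 3 controls and 2.90, 1.93 and 2.01 units under palmitic acid, with at most 37 reads. It shares its exons with the genes ABHD14A and ACY1, so the assignment of its reads is uncertain, and no fold is given, although it is counted among the 111.

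Stress pathways often described for palmitic acid held 0 calls by limma, although in several lists many genes were higher in all 3 clones. Of 22 tested targets of NRF2, the factor of the antioxidant response, 0 were called by limma, with 10 higher and 1 lower at an unadjusted p under 0.05 (edgeR 0, DESeq2 2). In this list 15 genes (68.2%) were higher in all 3 clones against 20.2% of all genes, and the median was 0.23. SRXN1, which repairs peroxiredoxins, was at 0.50 ± 0.11 (adjusted p = 0.0612), the quinone reductase NQO1 at 0.48 ± 0.11 (adjusted p = 0.0785) and the reductase AKR1B10 at 1.14 ± 0.26 (adjusted p = 0.0775). Groups did not overlap for SRXN1 and overlapped for the other two. Without the CC clones 6 NRF2 targets were called, in the fit that called 471 of all 12997 genes.

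For 24 genes of the integrated stress response, driven by ATF4 and CHOP, limma called 0 (4 higher and 0 lower at an unadjusted p under 0.05) and the median was 0.15. Of these, 12 (50.0%) were higher in all 3 clones, as were 13 of the 25 genes of autophagy and lysosomes (52.0%), against 20.2% of all genes. The shares were 29.2% for chaperones, 30.4% for cell death regulators, 10.0% for p53 targets and 3.03% for cell cycle genes. TRIB3 went from 53.7 to 103 units in clone 1, from 59.2 to 101 in clone 2 and from 203 to 279.5 in clone 6, at 0.72 ± 0.23 (adjusted p = 0.174), and DDIT4 was at 0.49 ± 0.21 (adjusted p = 0.282); both started several-fold higher in clone 6. Of 24 chaperones of the endoplasmic reticulum 0 were called (2 higher and 0 lower at an unadjusted p under 0.05), with a median of 0.048 and EDEM1 at 0.45 ± 0.11 (adjusted p = 0.101). Autophagy and lysosome genes held 0 of 25 (7 higher and 1 lower unadjusted), with the receptor SQSTM1 at 0.62 ± 0.21 (adjusted p = 0.198). Cell death regulators held 0 of 23 (5 higher, 0 lower), p53 targets 0 of 20 (1 and 1) and cell cycle genes 0 of 33 (1 and 5). The median of the cell cycle genes was -0.20, but 12.1% of them were lower in all 3 clones, against 19.3% of all genes. Among all 12997 tested genes, 1102 were higher and 940 lower at an unadjusted limma p under 0.05. In these 6 lists edgeR called 0, and DESeq2 called 1, in the chaperone list.

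In glycolysis and hypoxia genes 1 of 25 was called, the enolase ENO2, which went from 32.2 to 50.1 units in clone 1, from 27.3 to 37.1 in clone 2 and from 30.2 to 48.0 in clone 6, a change of 0.58 ± 0.11 (SE, n = 3 clones, adjusted p = 0.0355). Of the list, 15 genes (60.0%) were higher and 0 lower in all 3 clones, 11 were higher at an unadjusted p under 0.05, and the median was 0.22. The glucose carrier SLC2A1 went from 1159.6 to 2973 units in clone 1, from 469.7 to 1011 in clone 2 and from 3115 to 3912 in clone 6; its clones differed widely and the log2 change was 0.93 ± 0.20 (adjusted p = 0.0635). The calls among 23 interferon and NF-kB genes were 2 antiviral membrane proteins. IFITM2 went from 17.8 to 39.4 units in clone 1, from 16.2 to 23.8 in clone 2 and from 17.6 to 37.3 in clone 6, a change of 0.91 ± 0.15 (SE, n = 3 clones, adjusted p = 0.0239). IFITM1 stood at 0.57 ± 0.10 (adjusted p = 0.0323). They are near-identical in part, so their reads are hard to separate. Of 12 keratin and junction genes 50.0% were higher in all 3 clones. Of 12 gluconeogenesis genes, 32 respiratory chain genes and 12 keratin and junction genes limma called 0 each (1 higher and 0 lower, 1 and 4, and 3 and 1 at an unadjusted p under 0.05; edgeR 0 each, DESeq2 0, 0 and 1). Of 3 metallothioneins 0 were called, with MT2A at 0.85 ± 0.53, where clone 2 did not move and clone 6 did.

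**Figure D4:**
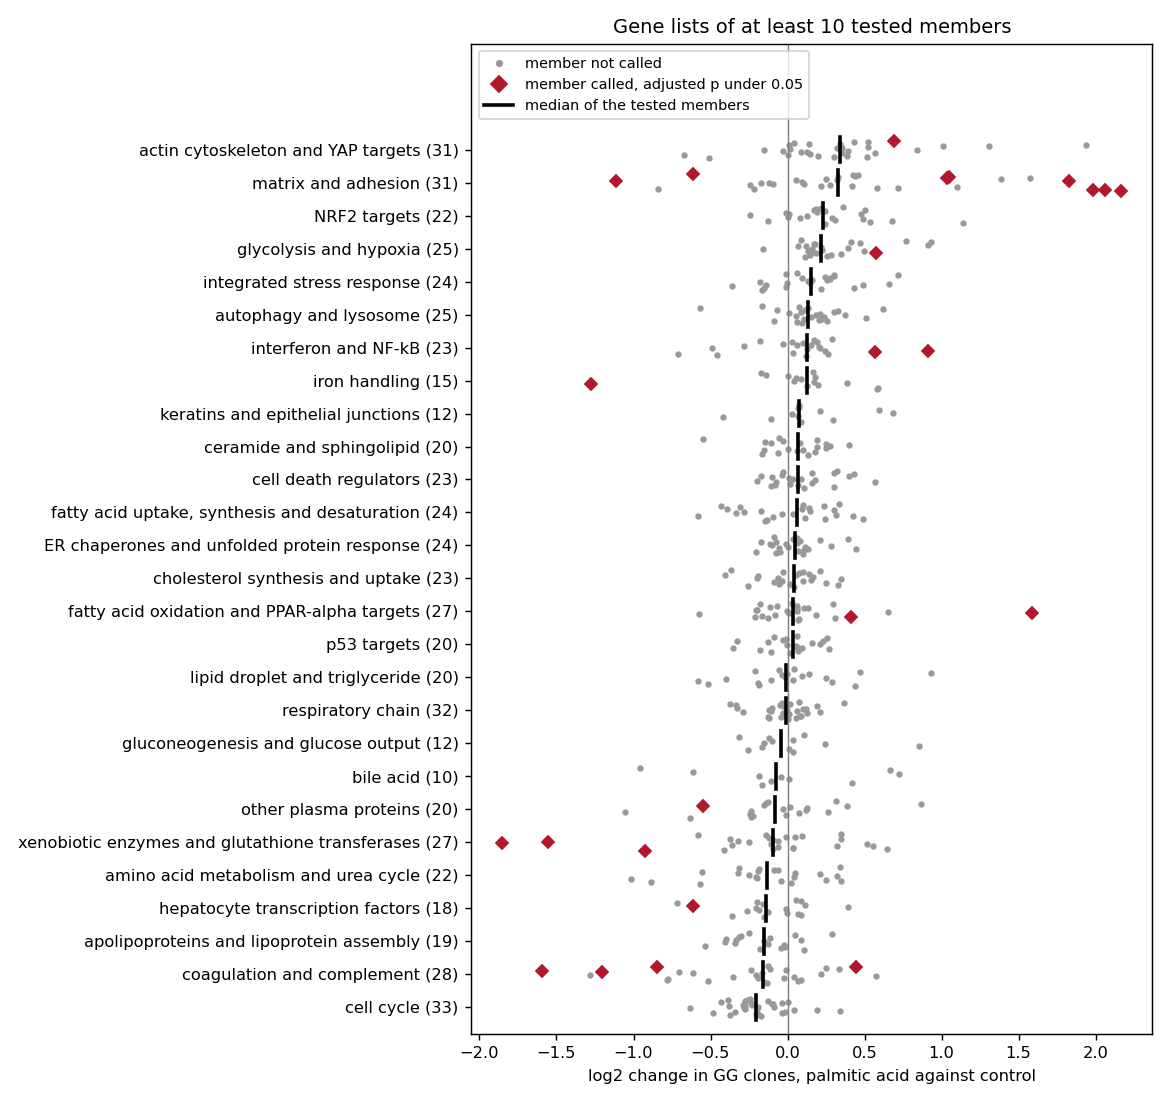
Log2 change with palmitic acid in GG clones for every tested member of the lists with at least 10 tested genes (number in brackets), sorted by the median, which is the black bar; red diamonds are called members and grey points members not called. Matrix and adhesion, with a median of 0.33, and the actin list, with 0.34, stand at the top. Several matrix members were listed with earlier results of these libraries in view. The cell cycle list, with -0.20, is at the bottom. Of its genes 12.1% were lower in all 3 clones, against 19.3% of all genes.

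The lists together covered 615 tested genes and held 24 of the called genes, while 87 called genes were in none. Biliary, macrophage and endothelial markers held 0 calls by limma among 3, 3 and 2 tested genes (0, 1 and 1 lower and 0 higher at an unadjusted p under 0.05; edgeR 0, DESeq2 0). KRT19 of bile ducts was high in clone 2 in both conditions, at 45.5 and 48.2 units there and from 0.362 to 1.25 units in the other libraries.

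The 3 clones responded with a similar overall spread, the SD of the log2 changes across genes being 0.360, 0.343 and 0.365 in clones 1, 2 and 6. At least 2-fold higher were 132, 77 and 194 genes, and at least 2-fold lower 125, 100 and 88. Across the 12997 genes, which are not independent and share a clone's libraries, the changes correlated at 0.381 between clones 1 and 2, 0.390 between 1 and 6 and 0.199 between 2 and 6. Among the 111 called genes clone 1 had the largest step for 55 and clone 2 the smallest for 57, with a median size of 0.825, 0.638 and 0.712 in clones 1, 2 and 6.

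Differences between untreated clones were often wider than the response. For 64 of the called genes the range of the 3 controls exceeded the change with palmitic acid. The median control range was 0.898 on the log2 scale for called genes and 0.584 for all tested genes.

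Of the 111 genes, 110 had a change of the same sign in the GC clones and 111 in the CC clones; the exception, ABHD14A-ACY1, was at 0.00 in GC. Their median size was 0.739 in GG, 0.641 in GC and 0.735 in CC, on the log2 scale. Limma called 67 of them in GC as well, which is 60.4% of the GG calls and 33.3% of the 201 GC calls (1.55% of all genes). In CC it called 66, which is 59.5% of the GG calls and 21.9% of the 301 CC calls (2.32% of all genes). The genes were chosen for their change in GG, so these sizes are a description. The 3 genotypes share no library, but their tests share 1 estimate of the spread for each gene. A gene with a small spread is more readily called in each genotype, so the shares of calls in common are a description too.

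The difference in response was tested directly and limma called 0 genes for GG minus GC (229 at an unadjusted p under 0.05; smallest adjusted p = 0.999; edgeR 0, DESeq2 0). For GG minus CC it called 0 as well (766 at an unadjusted p under 0.05; smallest adjusted p = 0.796; edgeR 0, DESeq2 1), but 486 without CC clone 1, which leaves a single CC clone assumed to vary like the others. The 95% intervals of the called genes reached a median of 0.38 to each side for GC and 0.425 for CC, before adjustment over genes. For a gene with such an interval, a smaller difference could not be told from 0 with these clones. After adjustment larger differences were not called either. For CPT1A the change was 1.59 ± 0.28 in GG, 1.51 ± 0.28 in GC and 2.42 ± 0.34 in CC, and GG minus CC was -0.83 (95% interval -1.79 to 0.13). KNG1 was at -1.59 ± 0.27, -2.49 ± 0.27 and -2.17 ± 0.33, and GG minus GC was 0.90 (95% interval 0.063 to 1.73). CLDN4 was at 1.52 ± 0.30, 0.82 ± 0.30 and 1.80 ± 0.37, with GG minus GC at 0.71 (95% interval -0.23 to 1.64). These intervals are not adjusted over genes, and none of the 3 differences was called.

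**Figure D5:**
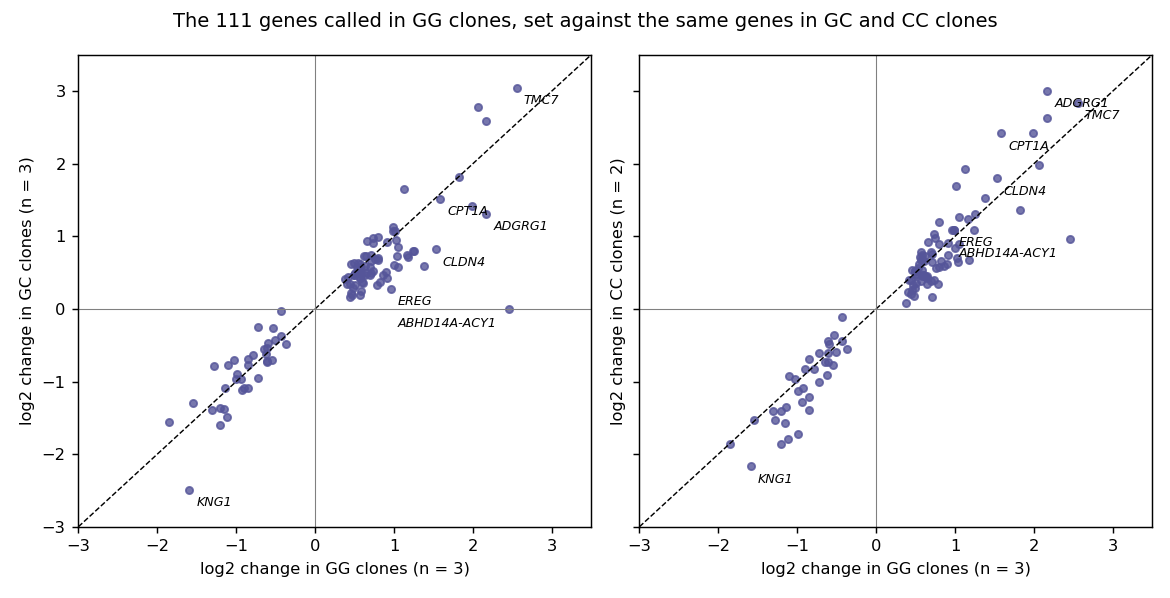
Log2 change with palmitic acid of the 111 genes called in GG clones (horizontal, mean of 3 clones) against the same genes in GC clones (left, n = 3) and CC clones (right, n = 2); the dashed line marks equal change. In both panels the points lie along the line; the genes were chosen by their change in GG clones, and ABHD14A-ACY1, with a fitted change that depends on the added 0.5, lies off it at 0.00 in GC.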

How the data were processed

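Libraries were directional and made after depletion of ribosomal RNA, per the labels' protocols. Per the submitters' processing notes, Trimmomatic 0.38, RSEM 1.3.0, Bowtie2 and edgeR were used with build hg38. The annotation, the gene filter and the vehicle of the control cells are not stated in what was used here. The authors deposited 1 table of normalized signal with 16558 genes. In each library all values (100%) were whole reads, within 0.01 reads, times a constant, and TMM-scaled per-million values recomputed from those reads differed from the table by 0. Limma 3.58.1 (R 4.3.3), with a mean-variance trend, was fitted to log2 of the units plus 0.5. It tested 12997 genes whose mean over the 6 GG libraries was 1 unit or more. The fit took all 16 libraries, a block for each clone and a treatment effect per genotype, and left 5 residual degrees of freedom. Tests were two-sided, and p-values were adjusted by Benjamini and Hochberg's method over the 12997 genes, with a threshold of 0.05.

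The pairing comes from the clone number, which the control and treated library of a line share. In a check of it, deviations from the group means correlated at 0.798 or more with the clone's own partner and at most at -0.199 with another clone. The 3 deviations of a gene sum to 0 in each group, which by itself pushes correlations with other clones below 0 when partners agree. With 1 library per clone and treatment, p-values measure how far the paired changes differ between clones of 1 genotype. Level differences between clones are taken out by the block. This spread is pooled over the 3 genotypes and adjusted with the trend over genes. The SE printed with n = 3 clones comes from it and is not the spread of the 3 GG clones alone. Named genes were the 15 largest called rises and the 15 largest called falls with 1 direction in all 3 clones, a mean of 5 units or more in the higher group and a conventional symbol. Added were PNPLA3, every called member of 32 gene lists and, for each list, the 3 members of smallest p. The libraries, lists and rule were chosen with earlier results of these data known. The values of 1 gene named by this rule are not reported here. Gene positions are from GENCODE 29 on GRCh38. Alternatives were other pseudocounts, filters and size factors, left-out clones, fits on fewer libraries, and edgeR 4.0.16 and DESeq2 1.42.0 on the recovered read counts. The scripts were tested on simulated data.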

Additional observations from a re-analysis of the deposited data

Results flagged for a closer look

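UQCRB, a subunit of complex III of the respiratory chain, went one way in every GG clone and the other way in every CC clone. It went from 39.6 to 27.2 units in clone 1, from 41.1 to 29.5 in clone 2 and from 38.2 to 35.1 in clone 6, so that the GG groups did not overlap. Its log2 change was -0.38 ± 0.11 (SE, n = 3 clones, limma adjusted p = 0.135) in GG, where 0 of 3 clones went up, and 0.47 ± 0.13 (n = 2 clones, adjusted p = 0.0869) in CC, where 2 of 2 went up. The difference, GG minus CC, was -0.85 (95% interval -1.22 to -0.47) with a limma adjusted p = 0.796 over all genes. UQCRB was picked for these opposite directions, which were searched for among the named and called genes only. Other tested genes had the same pattern, among them POLR2F (GG minus CC -0.76) and CCDC58 (-0.71). The share of all tested genes with it was not counted. The interval is not adjusted over genes or for that choice, so its distance from 0 is no test of the difference. In GC the change was -0.049 ± 0.11, with 1 of 3 clones up.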

How the results depend on the processing

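The number of genes called in GG clones moved by over 1.5 times when the block, the libraries in the fit or the tool changed. Some of these fits also held fewer samples, and the cause was not tested. Without the replicate block limma called 0 genes (0 higher, 0 lower), with only the 6 GG libraries 372 (243 higher, 129 lower), with the GG and GC libraries 471 (280 and 191), and DESeq2 called 251 (160 and 91). Leaving out 1 GG clone gave 0 to 20 calls (0 to 16 higher, 0 to 4 lower), and leaving out 1 CC clone, an alternative chosen after seeing the data like the fit of GG and GC libraries, gave 463 to 473 (275 to 279 higher, 188 to 194 lower). All 111 genes were shared by the fits of 6 GG libraries, of GG and GC libraries and without 1 CC clone. With 1 CC clone left, its pair adds nothing to the residual spread. Such fits and that of GG and GC libraries therefore take it from the same GG and GC pairs. Pseudocounts of 0.1 and 2, no filter, a minimum mean of 5, DESeq2-type size factors and edgeR gave 101 to 115 calls. For GG minus CC there were 3 calls with no filter, 1 by DESeq2 and 0 to 486 when 1 clone was left out. Of 41 called genes named by the rule, 0, 9 and 4 kept the call without clones 1, 2 and 6, and 0 kept it without the replicate block. All went the same way in the 3 clones, so leaving out 1 clone could not turn their mean. Dropping the other genotypes or the block leaves that mean as it is. It therefore says little that 0 changed direction under any alternative. Genes that were not called did: when 1 GG clone was left out, MT1E ranged from -0.316 (clone 6) to 0.813, PNPLA3 from -0.0949 (clone 1) to 0.174, EPCAM from -0.0106 (clone 2) to 0.0674, CD68 from -0.137 to 0.00859 (clone 1), and SLC30A1 from -0.0701 (clone 1) to 0.135, with -0.0282 without clone 6 and -0.00562 by edgeR. With 3 clones and a median SE of 0.12, the smallest change called was 0.37 on the log2 scale.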

Other observations

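The 3 untreated GG clones differed from each other beyond the genes described above. Clone 2 stood furthest apart: 116 of the tested genes were at least 4-fold higher in its control library than in both other clones and 53 at least 4-fold lower. For clone 1 these counts were 16 and 27, and for clone 6 38 and 26. Under palmitic acid they were 92 and 57 in clone 2, 20 and 35 in clone 1 and 42 and 44 in clone 6. LYVE1, a hyaluronan receptor of lymphatic and liver sinusoidal endothelium, was at 30.02 units in control clone 2 and at 1.11 and 2.17 units in clones 1 and 6. IGFBP1, a binding protein of insulin-like growth factors made by hepatocytes, was highest in clone 6, with 15.2 units in clone 1, 83.7 in clone 2 and 359.7 in clone 6.

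Across the tested genes 2651 went the same way in all 3 GG and all 3 GC clones, and 153 went one way in all GG clones and the other way in all GC clones. None of those differences passed limma's adjusted threshold (0 called for GG minus GC, edgeR 0, DESeq2 0; 229 of all tested genes at an unadjusted p under 0.05).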
